A study of Homo sapiens with 6 samples.

Results

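The E2F transcription factors and the retinoblastoma pocket proteins were followed in HCT116 cells, a human colorectal carcinoma line, with and without oxaliplatin. The 10 genes were E2F1, E2F2, E2F3, E2F4, E2F5, E2F7 and E2F8 on the E2F side and RB1, RBL1 and RBL2 on the pocket protein side, taken by their symbols from a table of 27942 genes, and all 10 were found once. RNA was sequenced from 3 libraries of untreated cells (NT) and 3 of cells given 0.5 µM oxaliplatin, a platinum drug that forms crosslinks in DNA, for 24 h (OXA). The study describes HCT116 as carrying functional p53, and no transgene, knockdown or second drug was part of these libraries, which come from a single line at a single dose and time. The labels call the libraries of a group triplicates without saying whether they came from separate cultures, so p-values measure the spread between these libraries, which may be technical.

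E2F proteins bind a short DNA element upstream of genes for DNA replication and the entry into S phase. In resting or arrested cells the pocket proteins hold E2Fs and keep those genes silent, and cyclin-dependent kinases release the E2Fs by phosphorylating the pocket proteins. E2F1, E2F2 and E2F3 are known as activators that pair mainly with the RB1 product pRB, E2F4 and E2F5 as repressors that pair mainly with p107 (RBL1) and p130 (RBL2), and E2F7 and E2F8 as repressors that bind DNA without a pocket protein. Several of these genes, such as E2F1 and RBL1, are themselves known E2F targets.

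Library totals lay between 32979521 and 40967880 counts, and in every library each of the 10 genes had 273 raw counts or more. Values below are counts scaled by TMM to a common library size. All 10 genes passed the filter on low counts and were among the 13727 genes tested by edgeR. Of the 10 colon epithelial markers looked at, EPCAM, CDH1, KRT8, KRT18 and KRT19 were abundant. CDX2 was lower, with 434 to 599 raw counts over the libraries. VIL1 and KRT20 were low, with 39 to 95 and 26 to 61 raw counts. The remaining 2, CDX1 and LGALS4, had 3 counts or fewer in every library. Of 12 markers of blood, fibroblast, endothelial and contractile cells, 3 had 3 counts or fewer in every library, and their summed level was 503 to 738 normalized counts in NT and 1103 to 1417 in OXA. ACTA2, a smooth muscle actin, made up much of the sum in OXA, with 821 ± 122 normalized counts (log2 fold change 2.00, edgeR adjusted p = 0.00178). All 6 libraries come from the HCT116 line, and the source of these marker counts was not tested.

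Of the 10 genes, 4 were lower in OXA at an adjusted p-value under 0.05 (E2F1, E2F2, E2F8 and RBL1), none was higher, and 6 did not pass. All 4 were lower by more than 1.5-fold. Over all genes tested, 2.29% were called lower and 2.78% higher, or 5.07% in either direction, and by more than 1.5-fold 1.44% were lower and 1.97% higher. The median log2 fold change (below, log2 change) of the 10 genes was -0.23, and that of all genes tested was 0.023. In bulk RNA, fewer cells in the phase that expresses a gene and less RNA per cell cannot be told apart. Without OXA library 1 none of the 10 genes passed the threshold, and without OXA library 2 only E2F1 did, whereas 3 or 4 passed when any other library was left out. Calls were lost over all genes tested as well, where 315 were lower with all 6 libraries, 19 without OXA library 1 and 32 without OXA library 2.

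**Figure D1:**
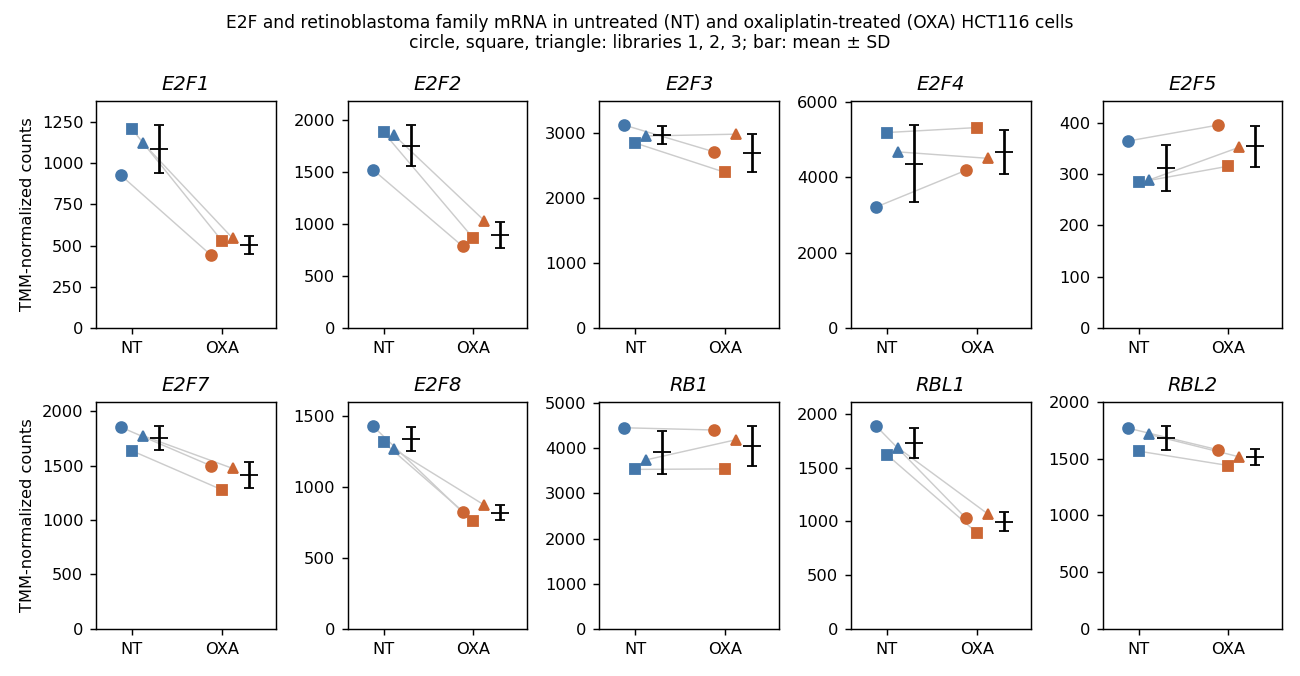
TMM-normalized counts of the 10 genes in each of the 6 libraries, 1 panel a gene, with NT and OXA side by side, a symbol for each library, a thin line joining same-numbered libraries and a bar for the mean ± SD of 3. The groups are apart for E2F1, E2F2, E2F7, E2F8 and RBL1 and overlap for E2F3, E2F4, E2F5, RB1 and RBL2.

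E2F1, the activator best known for driving S phase genes, had the largest fall of the 10 genes. It had 924, 1206 and 1122 normalized counts in NT libraries 1 to 3 and 441, 529 and 544 in OXA libraries 1 to 3. Every OXA library lay well below every NT library. The mean fell by 53.4%, from 1084 ± 145 (SD, n = 3) to 505 ± 55.5, a log2 change of -1.10 (standard error, SE, 0.143, 95% interval -1.43 to -0.77, edgeR adjusted p = 0.00858). Left out in turn, only OXA library 1 took E2F1 past the threshold (edgeR adjusted p = 0.0584). E2F1 lies on chromosome 20 from 33675477 to 33686385 (GRCh38, minus strand).

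E2F2, a second activator, is encoded on chromosome 1 (23506438 to 23531233, minus strand). Its NT libraries held 1527, 1885 and 1855 normalized counts, and its OXA libraries held 788, 864 and 1035. The groups did not overlap, and in both groups library 1 was the lowest, as for E2F1. The mean fell by 49.0%, from 1756 ± 199 to 896 ± 127 (log2 fold change -0.97, SE 0.139, 95% interval -1.29 to -0.65, edgeR adjusted p = 0.0115). The call was lost without NT library 3, OXA library 1 or OXA library 2, at edgeR adjusted p-values of 0.0535, 0.0723 and 0.0686.

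E2F3, the third activator, was not called. Its libraries held 3121, 2846 and 2954 normalized counts in NT and 2709, 2394 and 2982 in OXA, and the highest OXA library lay above the middle NT library. The log2 fold change was -0.14 (SE 0.104, 95% interval -0.38 to 0.099, edgeR adjusted p = 0.486). The table holds a single row for E2F3, which lies on chromosome 6 (20401879 to 20493714, plus strand), so its long and short forms are counted together.

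The bases just upstream of the start sites of E2F1, E2F2, E2F3 and RBL1 carry words of the E2F element, and they are shown because these genes are both factors and potential targets in the same circuit. E2F7, a gene without such a word in its window, is shown for contrast. Each line gives the last 100 bases before the RefSeq start site, read 5′ to 3′ on the strand of the gene from GRCh38.p14. Capitals mark every match to TTTCCCGC, TTTCGCGC, TTTGCCGC or TTTGGCGC on either strand.
E2F1, chr20:33686386-33686485, minus strand: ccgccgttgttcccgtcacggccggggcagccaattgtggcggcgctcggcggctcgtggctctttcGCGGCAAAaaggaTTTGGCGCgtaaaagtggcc
E2F2, chr1:23531234-23531333, minus strand: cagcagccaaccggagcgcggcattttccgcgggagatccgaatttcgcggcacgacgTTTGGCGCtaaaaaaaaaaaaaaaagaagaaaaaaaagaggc
E2F3, chr6:20401779-20401878, plus strand: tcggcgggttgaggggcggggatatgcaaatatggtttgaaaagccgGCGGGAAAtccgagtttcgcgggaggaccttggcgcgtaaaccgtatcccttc
RBL1, chr20:37095998-37096097, minus strand: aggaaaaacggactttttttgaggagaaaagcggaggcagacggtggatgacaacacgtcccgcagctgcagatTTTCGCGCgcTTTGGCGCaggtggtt
E2F7, chr12:77065570-77065669, minus strand: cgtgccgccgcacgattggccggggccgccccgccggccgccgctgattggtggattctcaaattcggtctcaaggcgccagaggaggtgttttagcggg

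Counted from the start site, the words of E2F1 begin at -33 and -20, that of E2F2 at -42, that of E2F3 at -53 and those of RBL1 at -26 and -16. The first word of E2F1 and the word of E2F3 read against the gene, and the others read with it. RefSeq windows from 250 bases before to 50 after the start matched 8 of the 10 genes, all but E2F5 and E2F8. A word was found in 4 of the 8, against 3.31% of all 35116 RefSeq windows and 6.59% of the 10396 tested genes with a window. Of the 4 genes with a word, 3 were called lower in OXA and E2F3 was not. E2F3 has another window, with its start site at 20403614, that held no word. None of the other 4 (E2F4, E2F7, RB1 and RBL2) was called in this fit. E2F7 was called lower in a fit that compares same-numbered libraries (edgeR adjusted p = 0.0188), and E2F8, also lower, had no window. The RefSeq windows of RB1 and RBL2 do not begin where GENCODE places the start of those genes. That of RB1 has its start site at 48476450, inside the gene, which begins at 48303744. A match is a description of the letters and was not tested for binding.

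E2F4, a repressor E2F that spends part of its time outside the nucleus, was the most abundant E2F messenger per length. Its libraries held 3211, 5187 and 4674 normalized counts in NT and 4186, 5319 and 4503 in OXA, and library 1 was the lowest in both groups. The log2 fold change was 0.10 (SE 0.181, 95% interval -0.32 to 0.52, edgeR adjusted p = 0.803). Its sign rested on single libraries, since it became -0.078 without NT library 1 and -0.0035 without OXA library 2. The spread of the NT libraries, 4357 ± 1025, was the widest of the 10 genes, and differences within that interval were not detectable in these libraries. E2F4 lies on chromosome 16 from 67192155 to 67198918 on the plus strand.

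E2F5, the other repressor that works with pocket proteins, was the least abundant of the 10, at 364, 284 and 288 normalized counts in NT and 395, 315 and 352 in OXA. The groups overlapped, with NT library 1 above both OXA libraries 2 and 3. The log2 fold change was 0.18 (SE 0.160, 95% interval -0.19 to 0.55, edgeR adjusted p = 0.565). E2F5 lies on chromosome 8 (85177154 to 85217158, plus strand), and 16.6% of its exonic bases are shared with RBIS on the opposite strand. The strand setting of the counting is not given in the sources used here, so reads of these bases may not have been told apart.

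E2F8, a repressor that acts without a pocket protein and is known to restrain E2F1, fell. Its libraries held 1429, 1314 and 1264 normalized counts in NT and 821, 762 and 872 in OXA, and the groups were far apart. The mean fell by 38.7%, from 1336 ± 84.7 to 819 ± 55.1 (log2 fold change -0.71, SE 0.105, 95% interval -0.95 to -0.46, edgeR adjusted p = 0.0126). Without OXA library 1 or 2 the edgeR adjusted p rose to 0.0878 and 0.0765. E2F8 lies on chromosome 11 from 19224063 to 19241620 on the minus strand.

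E2F7, its close relative, had 1851, 1636 and 1775 normalized counts in NT and 1497, 1278 and 1474 in OXA. Here too every OXA library was below every NT library, but the gap was narrow. The log2 fold change was -0.31 (SE 0.104, 95% interval -0.55 to -0.066), and it did not pass the threshold (edgeR adjusted p = 0.139). In a fit blocked by replicate number, which compares same-numbered libraries, E2F7 was called lower at the same log2 fold change (SE 0.0588, edgeR adjusted p = 0.0188). OXA was below NT in all 3 same-numbered pairs, by log2 differences of -0.31, -0.36 and -0.27. E2F7 lies on chromosome 12 from 77021248 to 77065569 on the minus strand.

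With the block, 5 of the 10 genes were lower and none higher, while 10.9% of all genes tested were called lower and 12.1% higher, 23% in all. Without regard to any test, 5 of the 10 genes had all OXA libraries below all NT libraries, which held for 14.4% of the genes tested, and none had them all above, which held for 14.5% (28.9% in either direction).

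**Figure D2:**
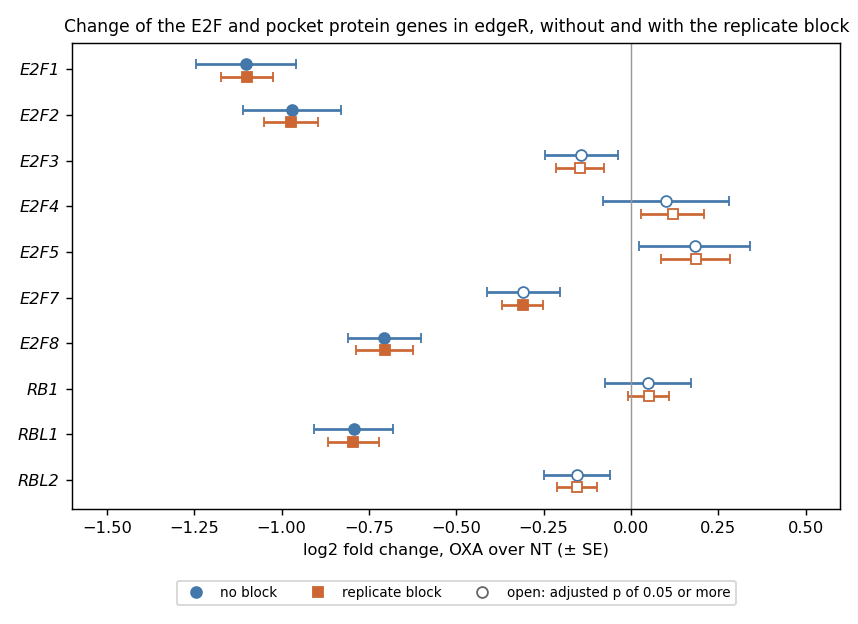
Log2 fold change of OXA against NT for each of the 10 genes, with bars of 1 SE, for the edgeR fit without (circles) and with (squares) the replicate block, filled where the adjusted p-value is under 0.05. E2F1, E2F2, E2F8 and RBL1 are filled in both fits, and E2F7 at -0.31 only with the block.

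Among the pocket proteins, RBL1, which encodes p107, was the gene that fell. Its libraries held 1886, 1619 and 1686 normalized counts in NT and 1029, 894 and 1070.1 in OXA, with no overlap. The mean fell by 42.3%, from 1730.2 ± 139 to 998 ± 92.1 (log2 fold change -0.79, SE 0.113, 95% interval -1.06 to -0.53, edgeR adjusted p = 0.0112). The call was lost without OXA library 1 or 2, at edgeR adjusted p-values of 0.0723 and 0.0600. RBL1 lies on chromosome 20 (36996349 to 37095997, minus strand), and the printed sequence just upstream of it holds a pair of E2F words with only a short gap between them. An unnamed noncoding GENCODE gene covers 3.58% of the exonic bases of RBL1 on the opposite strand.

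RB1, the founding tumour suppressor of the family, had 4449.8, 3529 and 3739 normalized counts in NT and 4400.4, 3539 and 4185 in OXA. The groups lay on top of each other, and library 1 was the highest in both. The log2 fold change was 0.05 (SE 0.124, 95% interval -0.24 to 0.34, edgeR adjusted p = 0.861). Its sign turned when NT library 2, NT library 3, OXA library 1 or OXA library 3 was left out, with values between -0.052 and -0.011. RB1 spans chromosome 13 from 48303744 to 48599436 on the plus strand.

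RBL2, which encodes p130, the pocket protein typical of quiescent cells, had 1769.5, 1566 and 1713 normalized counts in NT and 1579, 1439 and 1516 in OXA. The lowest NT library lay below the highest OXA library. The log2 fold change was -0.16 (SE 0.0947, 95% interval -0.38 to 0.065, edgeR adjusted p = 0.397). RBL2 lies on chromosome 16 from 53433977 to 53491648 on the plus strand. On the opposite strand AKTIP covers 7.51% of its exonic bases and an unnamed GENCODE gene covers 8.89%.

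Same-numbered libraries of NT and OXA resembled each other across the 10 genes. In both groups library 1 was the lowest for 3 genes (E2F1, E2F2 and E2F4) and the highest for 4 (E2F5, E2F7, RB1 and RBL2). What the number stands for is not stated in the labels.

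Levels were compared between genes as RPKM, that is, counts scaled by exon length and by the library size after TMM. In NT, E2F4 led at 33.7, followed by RB1 at 16.9, E2F3 at 15.9, E2F1 at 11.2, E2F8 at 8.98, E2F2 at 8.93, RBL1 at 8.07, E2F7 at 7.75, RBL2 at 5.77 and E2F5 at 1.45. Neighbours in that order whose libraries overlapped were RB1 and E2F3, E2F1 and E2F8, E2F8 and E2F2, E2F2 and RBL1, and RBL1 and E2F7. The remaining steps were larger than the spread between libraries. In OXA the first 3 places were the same, E2F7 stood 4th at 6.26, E2F8 5th at 5.50, E2F1 6th at 5.22, RBL2 7th at 5.18, RBL1 8th at 4.66, E2F2 9th at 4.56 and E2F5 last at 1.64. From E2F7 to E2F2 each gene's OXA libraries overlapped those of the next, as did RB1 and E2F3, so the order within those runs was within the spread. When the length of the longest transcript replaced the exon length, RBL1 and E2F7 changed places in NT, and in OXA RBL2 moved from 7th to 5th, E2F8 from 5th to 6th and E2F1 from 6th to 7th, while the other genes kept their places.

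The make-up of the families per length followed from these changes and is given as a description. E2F1, E2F2 and E2F3 together made up 41.2 ± 2.09% (SD, n = 3) of the summed level of the 7 E2F genes in NT and 32.9 ± 2.85% in OXA. E2F4 and E2F5 made up 39.6 ± 5.15% in NT and 51.1 ± 4.25% in OXA. For each of these shares NT and OXA did not overlap. In NT the ranges of the activator and the pocket-dependent repressor shares overlapped each other, and in every OXA library the repressor share was the larger. That order in NT depends on the length used. By the longest transcript, NT means were 46.3 for E2F4 and 1.72 for E2F5. Those of E2F1, E2F2 and E2F3 were 11.2, 9.39 and 16.4, so the repressor pair was on average the larger in NT as well. E2F7 and E2F8 held 22.7%, 16.9% and 18.0% in NT against 17.5%, 14.2% and 16.4% in OXA, with overlap.

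Among the pocket protein genes, RB1 made up 54.9 ± 1.33% of the summed level in NT and 63.9 ± 1.19% in OXA. RBL1 made up 26.3 ± 0.502% in NT and 17.1 ± 0.618% in OXA, while the share of RBL2 was 18.8 ± 0.946% and 19.0 ± 1.03%. The shares of RB1 and RBL1 moved in opposite directions without overlap between groups, although the level of RB1 itself was not called. The level of RBL1 relative to RBL2 was 1.45, 1.41 and 1.34 in NT and 0.888, 0.846 and 0.961 in OXA, so that p107 messenger was the more abundant in every NT library and p130 messenger in every OXA library.

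Within the E2F genes, the level of E2F1 relative to E2F4 was 0.385, 0.311 and 0.321 in NT and 0.141, 0.133 and 0.162 in OXA. That of E2F2 relative to E2F3, a ratio of activators, was 0.465, 0.629 and 0.597 in NT and 0.276, 0.343 and 0.330 in OXA. E2F7 was below E2F8 in every NT library, at ratios of 0.851, 0.818 and 0.923, and above it in every OXA library, at 1.20, 1.10 and 1.11. These ratios are taken within a library and do not depend on a scaling factor that a library's genes share.

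**Figure D3:**
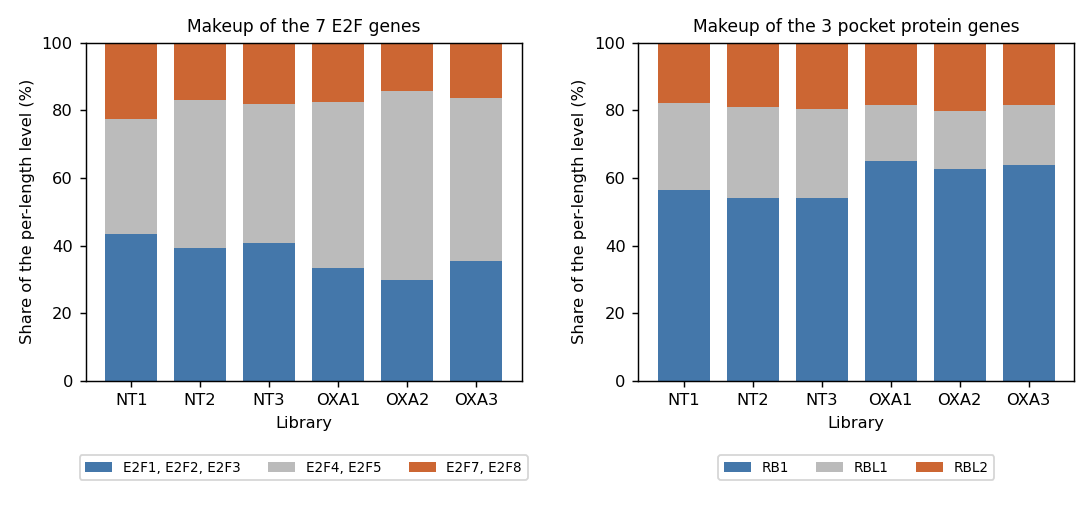
Shares of the summed per-length level in each library, in percent, for the 7 E2F genes grouped as E2F1 to E2F3, E2F4 with E2F5 and E2F7 with E2F8, and for the 3 pocket protein genes. The share of E2F4 with E2F5 and the share of RB1 are higher in all 3 OXA libraries than in any NT library.

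E2F proteins bind DNA with a DP partner. Neither partner gene was called, and nor was E2F6, a repressor E2F of another kind that works with polycomb proteins. TFDP1 had a log2 change of -0.11 (SE 0.098, edgeR adjusted p = 0.568), TFDP2 one of -0.051 (0.086, edgeR adjusted p = 0.785) and E2F6 one of -0.13 (0.164, edgeR adjusted p = 0.699). The value of TFDP2 turned to 0.11 with the authors' gene-specific factors.

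Of the 10 cyclin and kinase genes that act on the pocket proteins, 9 were tested, since CCND2 had no counts in any library. At an adjusted p-value under 0.05, 1 rose, 1 fell and 7 did not pass, against 2.78% higher and 2.29% lower over all genes tested. CCND1, which encodes the cyclin D1 that with CDK4 or CDK6 starts the phosphorylation of pRB, rose from 17473 ± 1038 to 27932 ± 440 normalized counts (log2 fold change 0.68, SE 0.0835, edgeR adjusted p = 0.00768), and the call was lost without OXA library 1 (edgeR adjusted p = 0.0566). CCNE2, which encodes cyclin E2 and is itself an E2F target, fell from 1318 ± 151 to 584 ± 71.6 (log2 fold change -1.17, SE 0.138, edgeR adjusted p = 0.00615). CCNE1, its paralog, had a log2 change of -0.085 (edgeR adjusted p = 0.717).

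Of the kinases, CDK4 and CDK6 serve D cyclins and CDK2 serves cyclins E and A. CDK4 and the third D cyclin gene CCND3 lay near 0, with log2 fold changes of 0.034 and 0.026 (edgeR adjusted p = 0.897 and 0.955). CDK6 had a log2 change of 0.41 and CDK2 one of -0.39 (edgeR adjusted p = 0.0697 and 0.0605), while CCNA2 and CDK1 had -0.37 and -0.36 (edgeR adjusted p = 0.113 and 0.112). With the replicate block, CDK6 was called higher (edgeR adjusted p = 0.00568) and CDK2, CCNA2 and CDK1 were called lower (0.00907, 0.0230 and 0.0204). Of the 9 cyclin and kinase genes tested, 4 were then lower and 2 higher, against 10.9% and 12.1% of all genes tested.

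Among 7 CDK inhibitor genes, 1 rose and none fell, against 2.78% higher and 2.29% lower over all genes tested. CDKN1A, which encodes the p53 target p21, an inhibitor of CDK2 complexes, rose from 5143 ± 907 to 39110 ± 2895 normalized counts (log2 fold change 2.93, SE 0.148, edgeR adjusted p = 0.000445), and was called whichever library was left out. CDKN1B, which encodes p27, had a log2 change of -0.31 (edgeR adjusted p = 0.165, or 0.0319 with the replicate block). With the block 1 of the 7 was lower and 1 higher, against 10.9% and 12.1% of all genes tested. CDKN1C had -0.20 (edgeR adjusted p = 0.652), and the INK4 genes CDKN2A, CDKN2B, CDKN2C and CDKN2D had -0.067, 0.064, -0.13 and 0.077 (edgeR adjusted p = 0.832, 0.893, 0.785 and 0.869). The signs of these INK4 values turned when single libraries were left out.

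The MuvB core, with p130 or p107 and E2F4, forms the DREAM complex that represses cell cycle genes, and with MYBL2 and FOXM1 it activates genes of mitosis. None of the 7 genes looked at was called, and all 7 had log2 fold changes below 0, with a median of -0.35. The values were -0.50 for LIN52, -0.46 for LIN54, -0.36 for RBBP4, -0.24 for LIN9 and -0.18 for LIN37 (edgeR adjusted p = 0.0703, 0.0516, 0.0795, 0.556 and 0.744). MYBL2 had -0.35 and FOXM1 -0.31 (edgeR adjusted p = 0.321 and 0.0788). With the replicate block, 4 of the 7 were called lower, against 10.9% of all genes tested. The edgeR adjusted p-values were 0.0155 for LIN52, 0.0140 for LIN54, 0.0123 for RBBP4 and 0.0215 for FOXM1.

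Of 7 genes that regulate the turnover of these proteins or of the cell cycle machinery, 1 rose and 1 fell. Over all genes tested, 2.78% were higher and 2.29% lower. MDM2, a p53 target whose product also binds pRB, rose from 6289 ± 729 to 29313 ± 2806 normalized counts (log2 fold change 2.22, SE 0.122, edgeR adjusted p = 0.000445). FBXO5, which encodes the APC/C inhibitor EMI1 and is an E2F target, fell from 1981 ± 318 to 1243 ± 172 (log2 fold change -0.67, SE 0.152, edgeR adjusted p = 0.0488). That value lay just inside the threshold, and the call of FBXO5 was kept only without NT library 1 when libraries were left out in turn. With the replicate block SKP2 and CCNF, which encode substrate receptors of ubiquitin ligases, were called lower as well. That made 3 of the 7 lower and 1 higher with the block, against 10.9% and 12.1% of all genes tested.

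**Figure D4:**
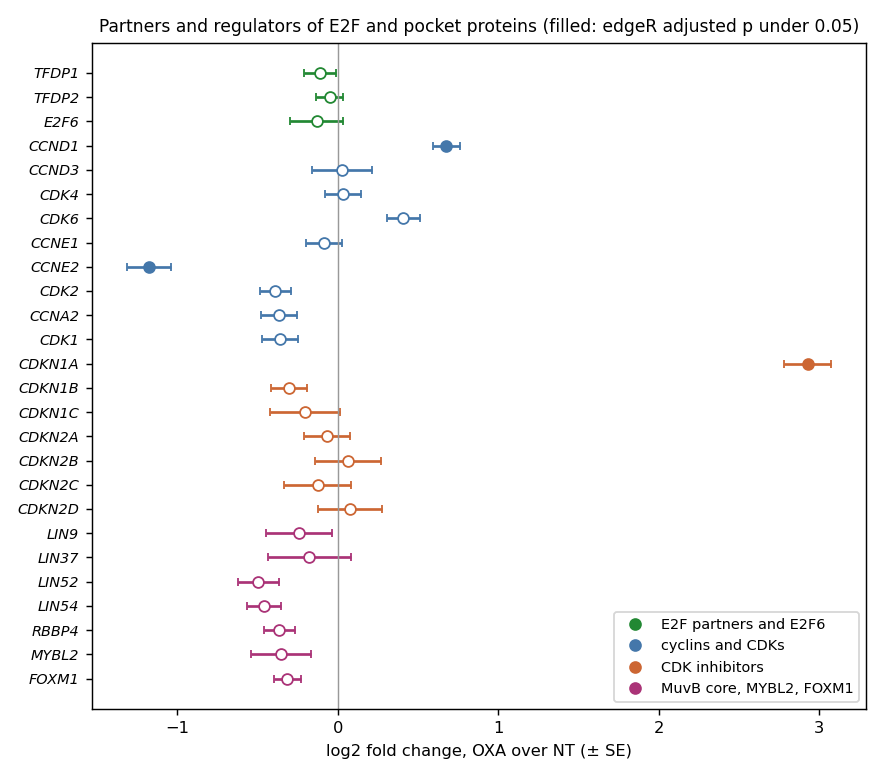
Log2 fold change of OXA against NT for the E2F partners, the pocket protein kinases and cyclins, the CDK inhibitors and the MuvB genes with MYBL2 and FOXM1, with bars of 1 SE, filled where the edgeR adjusted p-value is under 0.05. CDKN1A at 2.93 and CCND1 at 0.68 stand above 0 and CCNE2 at -1.17 below it.

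The genes that E2Fs are known to control were described by a list of 45 genes of G1/S, DNA replication and S phase. The list was chosen with earlier results of these data known. The study itself places DNA replication among the processes of its down-regulated genes. Of the 45, 28 were lower in OXA and none was higher, against 2.29% lower and 2.78% higher over all genes tested. Their median log2 fold change was -0.62, and 44 of 45 values were below 0, as were 6414 of the 13727 over all genes tested. By more than 1.5-fold 24 genes were lower, against 1.44% of all genes tested. The 3 largest falls were those of CCNE2, of POLA2, a subunit of DNA polymerase alpha (log2 fold change -1.01, edgeR adjusted p = 0.0118), and of MCM6, a subunit of the replicative helicase (-1.01, edgeR adjusted p = 0.00845). With the replicate block 39 of the 45 were lower, against 10.9% of all genes tested. The count of 28 fell to 14 without NT library 3, to 5 without OXA library 1, to 9 without OXA library 2 and to 12 without OXA library 3. Lower calls over all genes tested fell from 315 to 69, 19, 32 and 67 in the same order. POLA2 was called only without NT library 1 or 2, MCM6 lost its call only without OXA library 1, and CCNE2 was called whichever library was left out.

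Of 38 of these G1/S genes with a RefSeq window, 21 (55.3%) held an E2F word of the kind printed above, against 6.59% of the tested genes with a window. Among the 21 genes with a word 12 were lower in OXA, and among the 17 without one 10 were. Over all tested genes with a window, 48 of the 685 with a word and 206 of the 9711 without one were lower. These counts are a description and were not tested.

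A list of 30 genes of G2 and mitosis, many of them known targets of DREAM and of FOXM1, was looked at in the same way. In it 5 genes were lower and none higher, against 2.29% lower and 2.78% higher over all genes tested. The median log2 fold change was -0.29, with 27 of 30 values below 0, as were 6414 of the 13727 values over all genes tested. The largest falls were those of KIF11, a spindle motor (log2 fold change -0.63, edgeR adjusted p = 0.0275), MKI67, the proliferation antigen (-0.60, edgeR adjusted p = 0.0258), and TTK, a spindle checkpoint kinase (-0.56, edgeR adjusted p = 0.0376). With the replicate block 19 of the 30 were lower, against 10.9% of all genes tested. The count of 5 rose to 8 without NT library 1, fell to 1 without NT library 2 or NT library 3, and fell to 0 without any OXA library. Over all genes tested, the 315 lower calls became 571, 146 and 69 without NT libraries 1, 2 and 3. They became 19, 32 and 67 without OXA libraries 1, 2 and 3. KIF11 lost its call without NT library 3 or any OXA library, MKI67 without NT library 2 or any OXA library, and TTK without NT library 2, NT library 3 or any OXA library. An E2F word stood in 2 of the 25 windows of this list (8%). The difference between the lists was not tested.

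**Figure D5:**
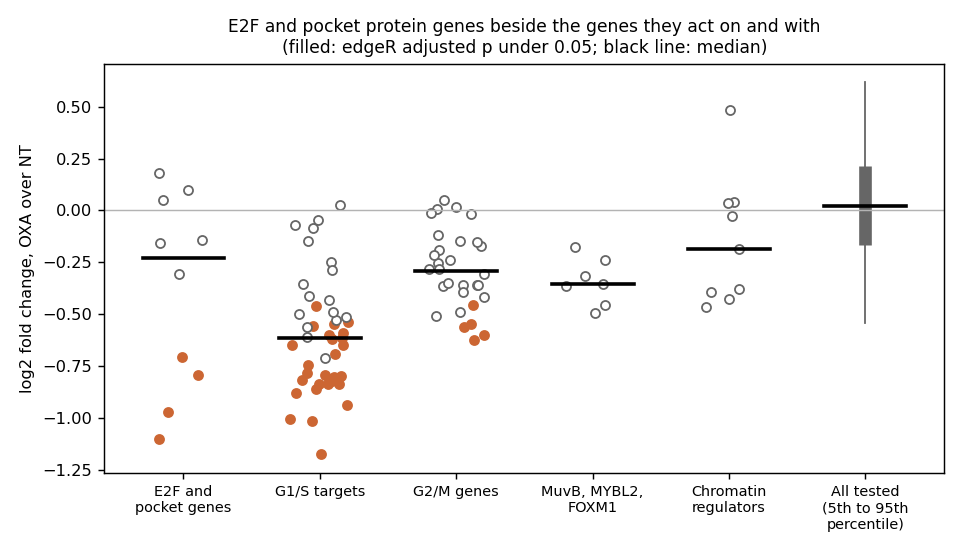
Log2 fold change of OXA against NT for the 10 E2F and pocket protein genes and the tested genes of the G1/S, G2/M, MuvB and corepressor (chromatin regulator) lists, filled where the edgeR adjusted p-value is under 0.05, with black lines for medians. At the right, all genes tested are shown by their median of 0.023, a thick bar for the middle quartiles and a thin line from -0.54 to 0.62, the 5th and 95th percentiles. The G1/S genes centre on -0.62 and the G2/M genes on -0.29.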

How the data were processed

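RNA of 6 HCT116 libraries had been selected by poly(A), prepared with a stranded kit and sequenced in pairs. Per the labels and the study's methods, the authors mapped reads to GRCh38. The submitters' processing notes name Trimmomatic 0.32, STAR 2.7.5b, RSEM 1.3.3 and DESeq2 2.13. The annotation and strand setting used for counting are not given in the sources used here. The authors deposited raw counts per gene, whole numbers that may have been rounded from RSEM estimates, and a normalized signal, the count times a factor specific to gene and library, which was used only for an alternative. Totals lay between 32979521 and 40967880 counts.

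Raw counts were filtered with filterByExpr (minimum count 10, minimum total 15), scaled by TMM and tested by the quasi-likelihood test of edgeR 4.0.16 (R 4.3.3), with Benjamini-Hochberg adjustment over 13727 genes and a threshold of 0.05. A standard error is the log2 fold change divided by the square root of F. DESeq2 1.42.0 and limma-voom (limma 3.58.1) were alternatives, beside other scalings and filters, a robust fit, a replicate block and leaving out single libraries. The steps were tested on simulated counts that had the same spread setting for all genes and no pairing of libraries. That test does not cover the paired and uneven spread of these libraries. Positions and exon lengths came from GENCODE 44, and sequences from RefSeq windows of GRCh38.p14.

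The numbers of the labels paired the libraries: deviations from the group means correlated at 0.48, 0.47 and 0.26 for same-numbered libraries, over the limit of 0.1, and at -0.41 to 0.076 for others. Block values are given where they change a call. The genes and lists were chosen with earlier results of these data known. The text names the 10 genes, all genes of the partner, kinase, inhibitor and MuvB lists, the called genes with the 3 largest rises and falls in the other lists, and the genes most like E2F1 and RBL1 in pattern. SKP2, CCNF, the markers and the corepressor genes were named after their values were seen.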

Additional observations from a re-analysis of the deposited data

How the results depend on the processing

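Of 170 recomputed log2 fold changes of the 10 genes, 154 kept their direction and their side of the threshold, and all 68 of E2F1, E2F2, E2F8 and RBL1 were negative. No gene of the 10 was higher under any alternative. With 1 library left out, E2F4 ranged from -0.078 to 0.22 and RB1 from -0.052 to 0.15 in log2 fold change. The number lower was 4 or 5 under 11 other alternatives and 0 to 4 with 1 library left out. E2F7 was called only in the fits with the replicate block (5 genes lower), at edgeR adjusted p-values of 0.0188 and, with the authors' factors, 0.0260. Under DESeq2 it was not called (adjusted p = 0.118).

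With 1 library left out, 5 to 35 G1/S genes and 0 to 8 G2/M genes were lower, and 3 to 14 of the 42 partner, kinase, inhibitor, MuvB, corepressor and turnover genes were called, against 5. These 42 gave 13 calls under upper quartile scaling, 9 with a mean of at least 50 counts, 16 under DESeq2, 21 with the replicate block and 22 with the replicate block and the authors' factors. The G2/M genes gave 8, 3 (authors' factors), 9 (DESeq2), 19 (replicate block) and 19 (block with those factors), against 5. Over all genes, 381 were higher and 315 lower. DESeq2 gave 633 and 635, the authors' factors 241 and 200, the replicate block 1664 and 1493, the block with those factors 1317 and 1167, upper quartile scaling 348 and 493, and 1 library left out between 66 and 19 (without OXA library 1) and 623 and 571 (without NT library 1). The causes were not tested.

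Of 561 values of 33 other named genes, 15 reversed. CCND3 became -0.012 and CDK4 -0.0058 under upper quartile scaling, and TFDP2 became 0.11 with the authors' factors and 0.098 with the block beside them. With 1 library left out, CCND3 ranged from -0.16 to 0.14, CDK4 from -0.063 to 0.099, CDKN2A from -0.15 to 0.028, CDKN2B from -0.14 to 0.21, CDKN2C from -0.28 to 0.013 and CDKN2D from -0.096 to 0.23. With the authors' factors POLA2 was not called (log2 fold change -0.85, edgeR adjusted p = 0.164). FBXO5 lost its call with those factors and under limma-voom. The older quasi-likelihood fit is the default of this edgeR version and so gave no value of its own.

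With 3 libraries a group, changes such as those of E2F3, E2F5 and RBL2 are bounded only by their intervals, and no absolute scale of RNA per cell was measured. Counting error was small beside the spread between libraries, and that spread was uneven. The mean chi-square per gene of raw counts was 83.1 and 75.7 between NT library 1 and NT libraries 2 and 3. In the other pairs within a group it lay between 19.2 and 29.6.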

Other observations

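Among 9 genes of corepressors that work with pocket proteins or E2Fs, none was called by edgeR, and the median log2 fold change was -0.19. With the replicate block 4 were lower and 1 higher, against 10.9% lower and 12.1% higher over all genes tested. The 4 were EZH2, the catalytic subunit of polycomb repressive complex 2 (log2 fold change -0.46, edgeR adjusted p = 0.00607 with the block), RBBP7, a histone-binding subunit of several such complexes (-0.43, 0.00781), the histone methyltransferase gene SUV39H1 (-0.39, 0.0426) and the scaffold gene SIN3A (-0.38, 0.00623). SIN3B, the paralog of SIN3A, was the gene that was higher (0.48, edgeR adjusted p = 0.0115 with the block). Without the block the edgeR adjusted p-values were 0.0609 for SIN3A and 0.0643 for SIN3B.

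The genes whose log2 levels followed E2F1 most closely over the 6 libraries, among 12056 genes with a mean of at least 50 normalized counts, were ULK2 (Pearson's r = 0.997), SYNE2 (0.995) and SAP30 (0.992). For RBL1 they were WDR76, BRIP1 and HADH, each at 0.999. The points include the gap between NT and OXA, and they share libraries, so the values are a description without a test.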
